A study of Mus musculus with 6 samples.

Results

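Twin cassettes are pairs of neighbouring exons that are included or skipped together, and mutually exclusive exons are pairs of which a transcript keeps one or the other. The members described here are all distinct events that the deposited array table annotates as one of these types. They number 212 of 13002 events, 153 twin cassettes and 59 pairs of mutually exclusive exons, in 211 genes. Of these, 211 had intensities for the comparison between genotypes used here, and the exception was the twin cassette of *Lrrfip2*. The most similar large class, single cassette exons, held 3777 events, of which 3763 had values.

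The measurements came from brain RNA of 6 animals of the B6.CAST congenic line, 3 homozygous for *Nxf1* CAST and 3 homozygous for *Nxf1* B6, on 6 Affymetrix MJAY splicing arrays. *Nxf1* encodes the main nuclear export factor for mRNA. The animals formed 3 littermate pairs of the same sex and opposite genotype, 2 female pairs aged 46 and 23 days and 1 male pair in which the *Nxf1* B6 animal was 22 days and the *Nxf1* CAST animal 23 days old. The question was whether the *Nxf1* allele shifts the choice between splice forms at sites away from retroviral insertions. Both genotypes shared the C57BL/6J background, and the *Nxf1* CAST animals also carried the linked CAST segment of chromosome 19, so the allele and its linked genes cannot be told apart.

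For each path of an event the table lists 1 exclusion and 1 inclusion intensity for each of 2 sets, A and B, already pooled over the arrays of the set. Columns are not named by genotype. The definition of the authors' score in the file header, set against the intensities, makes set B the mutant set, so that set B was likely *Nxf1* CAST and set A likely *Nxf1* B6. No value per animal was available, so no difference below has a replicate error or a test, and all are descriptions of the pooled values. The balance of an event is the log2 ratio of its exclusion to its inclusion intensity, and the difference of the balance is set B minus set A. A difference counts as past the threshold when its absolute value is over 0.5, the size used in the study's methods. The study also required a low false discovery rate, which is not applied here, so the counts below are not the study's calls. Because exclusion and inclusion are read by different probe sets, a balance above 0 does not say that one form was the more abundant. Whole brain was used, so fewer cells of a type and less RNA per cell cannot be told apart. Events of 6 neuronal, 4 astrocyte and 3 oligodendrocyte marker genes were present, and the brightest event of each lay at the 85.5th percentile of summed intensity or higher. The 1 microglial marker gene with an event, *Csf1r*, lay at the 50.8th percentile. Since brightness differs between probe sets and only 1 marker of another tissue had an event, this does not settle the tissue label.

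Mutually exclusive exons usually arose from duplication of an exon, so the copies encode versions of the same stretch of protein, such as a receptor's ligand-binding segment or a kinase's substrate-binding segment. Splicing factors that differ between neurons and other cells select the copy, and several pairs are known for switching during brain development. In a twin cassette both exons are removed together, so the frame downstream depends on the sum of their lengths. Skipping a pair whose summed length is not a multiple of 3 shifts the reading frame where the exons are coding.

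The members' names in the table carry a pair of numbers, read here as the lengths in nucleotides of the alternative exons, which the header does not define. Among 59 mutually exclusive pairs, 26 had exons of equal length and 25 more differed by a multiple of 3, so 51 (86.4%) would leave the frame alike whichever exon was kept. Only 16 of the 59 pairs had both exons as multiples of 3, and 19 of the equal pairs were not, so that carrying both exons or neither would shift the frame. The median difference in length was 3 nucleotides and the widest 173. In the twin cassettes the summed length was a multiple of 3 in 91 of 153 (59.5%), beside 1995 of 3752 single cassette exons of known length (53.2%). Of these 91 twins, 46 had both exons as multiples of 3 and in 45 neither exon was one, so that only joint skipping kept the frame. A twin exon had a median length of 110 nucleotides and a mutually exclusive exon 103.5. The shortest exon of a twin was 13 nucleotides, in *Olfm4*, and in *Clasp2*, whose protein stabilises microtubule ends, both exons were 27.

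The balances differed between the sets by little beside their range. In set A they ran from -5.18 to 4.17 over the twin cassettes, with a median of -0.69, and from -4.09 to 4.49 over the mutually exclusive exons, with a median of 0.12. Exclusion was brighter than inclusion in 50 of 152 twins (32.9%), beside 35.1% of single cassette exons, and in 32 of 59 mutually exclusive pairs (54.2%). For a mutually exclusive pair the table does not say which exon its exclusion path carries, so the sign of such a balance names no exon, and above or below 0 for these pairs follows only the table's order of the paths. The brighter path was another one in set B than in set A for 4 twins, *Eef2k*, *Smc1a*, *Slfn4* and *Nsun5*, and for 4 mutually exclusive pairs, *Acp1*, *P4ha1*, *Piwil4* and the transcript uc008oui-1.

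**Figure D1:**
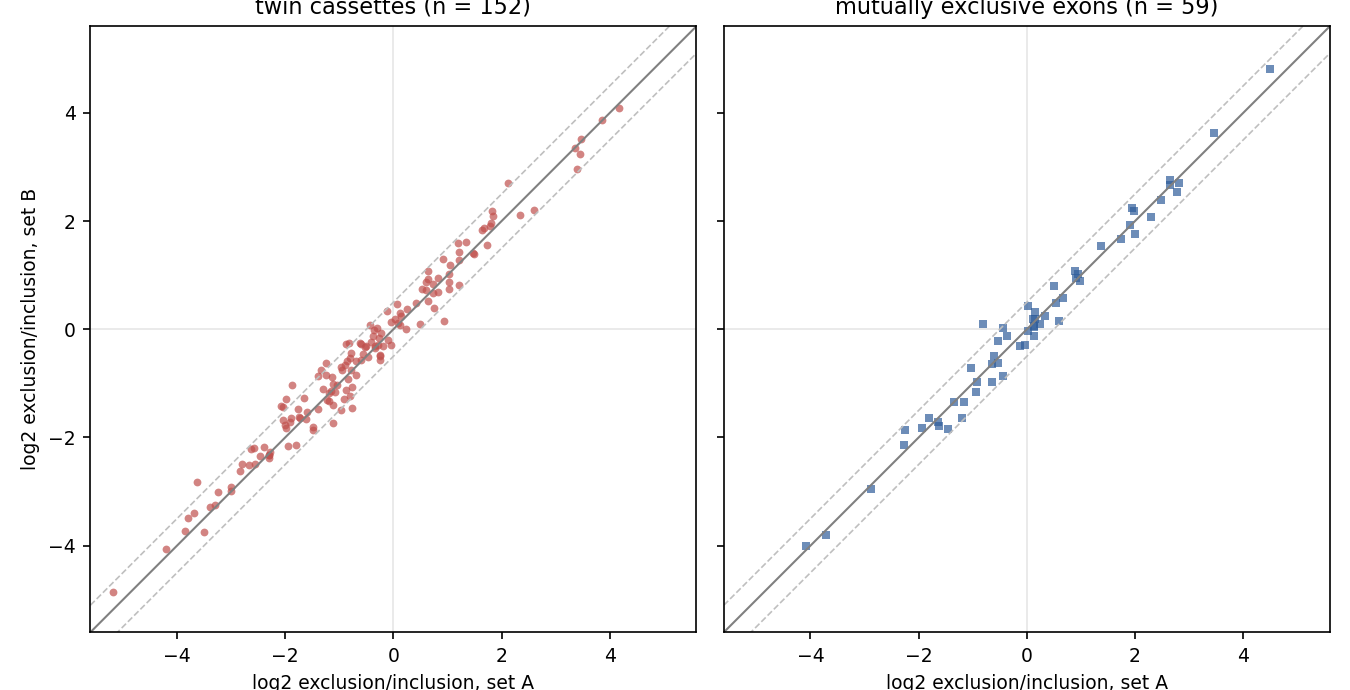
Log2 ratio of exclusion to inclusion intensity in set B (vertical axis) against set A (horizontal axis), with 1 point per event, for 152 twin cassettes and 59 pairs of mutually exclusive exons. The solid line marks equal balance and the dashed lines a difference of 0.5. Most points lie between the dashed lines, with 12 twins above and 4 below them, and 1 mutually exclusive pair above.

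The classes lay on either side of the whole table. The median absolute difference of the balance was 0.21 in the twin cassettes and 0.16 in the mutually exclusive exons, with 0.18 over all 12948 events and 0.19 over single cassette exons. Past the threshold were 16 of 152 twins (10.5%) and 1 of 59 mutually exclusive pairs (1.69%), where 950 of all events were (7.34%) and 8.56% of single cassette exons. More exclusion in set B by over 0.5 was seen in 12 twins, against a background of 4.52% of events, and less exclusion by over 0.5 in 4 twins, against 2.72%. The balance was higher in set B in 99 of 152 twins (65.1%), where 55.3% of all events were higher. In the mutually exclusive pairs it was higher in 28 of 59 (47.5%) as the table orders the paths and in 31 (52.5%) with the order turned, so no direction is read from them. No member reached 1, and only 29 events of the table did. The difference between the classes was not tested, since the exons are not replicates of the genotype.

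**Figure D2:**
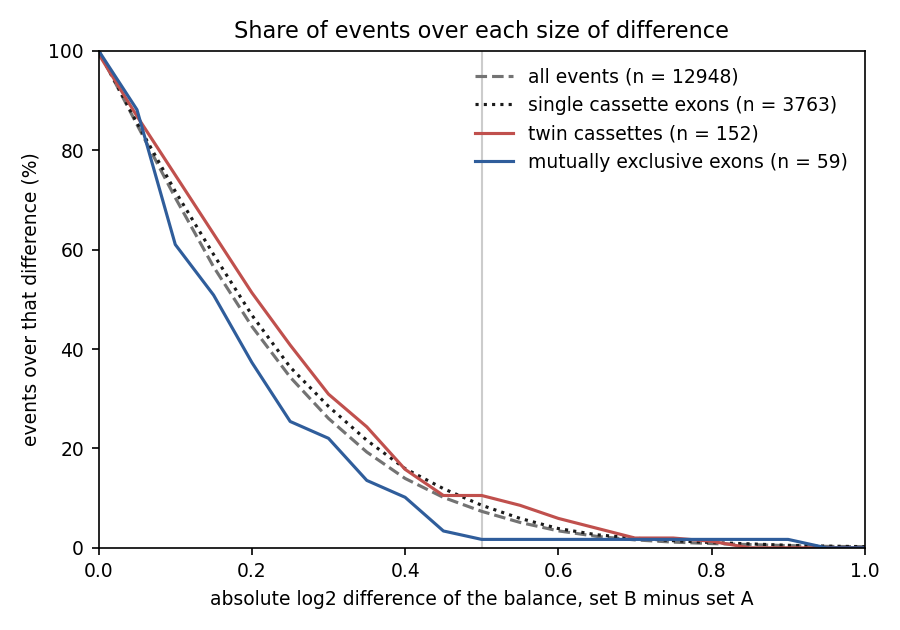
Percentage of events (vertical axis) whose absolute log2 difference of the balance is over the value on the horizontal axis, for all events, single cassette exons, twin cassettes and mutually exclusive exons. At 0.5 (grey line) the share was 10.5% for twin cassettes, 1.69% for mutually exclusive exons and 7.34% for all events.

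Among the mutually exclusive exons, 22 lie in genes long known for this kind of choice, of 48 such genes listed. None of the 22 was past the threshold, beside 1 of the other 37 pairs and 7.34% of all events. Over the 22 the median absolute difference was 0.11 and the largest 0.43, and 10 of them were under 0.1. In the table's order of the paths 11 of the 22 were above 0 and 11 below, which names no direction. The other 37 pairs had a median absolute difference of 0.18. They were also dimmer: the lowest intensity over a pair's paths had a median of 196, and of 328 over the 22. The part of brightness in this was not tested.

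The receptor and channel genes held near-equal pairs. In *Gria1*, an AMPA glutamate receptor subunit with 115-nucleotide flip and flop exons, one path read 2968 in set A against 2792 in set B, the other path 2357 against 2342, a difference of -0.08. In *Gria4*, with exons of the same length, the paths read 1286 and 1143, and 1310 and 1400, a difference of -0.27. The L-type calcium channel genes *Cacna1c* and *Cacna1d*, with 104-nucleotide exons, differed by 0.12 and -0.06. The sodium channel gene *Scn8a*, abundant in neurons, has 92-nucleotide exons and read 543 and 472 against 289 and 244, a difference of 0.04.

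Synaptic and membrane genes ranged from bright to dim. *Snap25*, a SNARE protein of vesicle fusion with 118-nucleotide exons, read 7948 in set A and 7945 in set B on one path and 12087 and 11162 on the other, a difference of 0.11. *Dnm1*, which pinches off endocytic vesicles, read 4922 and 5143 against 3086 and 3452, a difference of -0.10. *Rab6*, a Golgi GTPase, differed by 0.12, and the laminin receptor subunit *Itga7* by -0.19. *Col25a1*, a transmembrane collagen of neurons, had the second lowest difference of the class in the table's path order, -0.44. It read 128 and 117 on the exclusion path and 294 and 364 on the inclusion path. Over the 6 pairs of this group the median absolute difference was 0.12, with none past the threshold, beside 7.34% of all events.

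In the cytoskeletal genes, the 8 pairs had a median absolute difference of 0.24, with none past the threshold, beside 7.34% of all events. *Tnnt3*, troponin T of fast skeletal muscle, had the lowest difference of the class in the table's path order, -0.45. It read 296 and 338 on the exclusion path and 196 and 305 on the inclusion path, so both paths were brighter in set B. *Tpm2*, a tropomyosin, read 259 and 247 against 353 and 452, a difference of -0.43. *Tpm3*, the brighter tropomyosin with exons of the same 76 nucleotides, read 1050 and 1118 against 2664 and 2836, and its difference rounded to 0.00. The actin cross-linkers *Actn1* and *Actn4* differed by 0.17 and -0.10, *Mtss1*, a membrane-bending protein, by -0.33, and *Kifc3*, a minus-end kinesin, by 0.31.

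The 8 pairs of kinase and signalling genes had a median absolute difference of 0.15, with none past the threshold, beside 7.34% of all events. *Mapk10*, the neuronal Jun kinase, had the most uneven balance of the class, 4.49 in set A and 4.81 in set B, from 6161 and 6521 on one path and 274 and 233 on the other, a difference of 0.32. *Mapk8*, its ubiquitous relative with the same 72-nucleotide exons, differed by 0.02. *Mapk14*, the p38 kinase, differed by -0.06. *Fyn*, whose exons of 156 and 165 nucleotides give the brain and lymphoid kinase forms, read 213 and 225 against 1023 and 993, a difference of 0.12. *Fgfr1*, a fibroblast growth factor receptor, differed by -0.10, and *Srgap1* and *Srgap3*, GTPase-activating proteins of Slit-Robo signalling, by -0.23 and 0.17.

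Nuclear and metabolic genes completed the class. *Mef2d*, a transcription factor with alternative alpha exons, had the second most uneven balance, -4.09 in set A and -4.01 in set B. *H2afy*, named *Macroh2a1* in RefSeq and known for macroH2A1.1 and macroH2A1.2, read 1411 and 1372 against 358 and 303, a difference of 0.20. *Smarca2*, an ATPase of SWI/SNF remodelling and the class's single pair on chromosome 19, differed by -0.07. *A2bp1*, the neuronal splicing factor now named *Rbfox1*, differed by -0.09. *Piwil4*, a PIWI protein of the germ line, was the member nearest under the threshold at 0.48, on dim paths of 116 and 142, and 158 and 139. *Zfp354a* differed by -0.39. *Slc25a3*, the mitochondrial phosphate carrier, read 11327 and 11611 against 2829 and 3445, a difference of -0.25. *P4ha1*, a collagen prolyl hydroxylase subunit, had the most even balance, 0.02 in set A and -0.03 in set B. *Ppap2a* and *Kctd17* were among the 5 highest of the class in the table's path order, at 0.32 and 0.39.

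**Figure D3:**
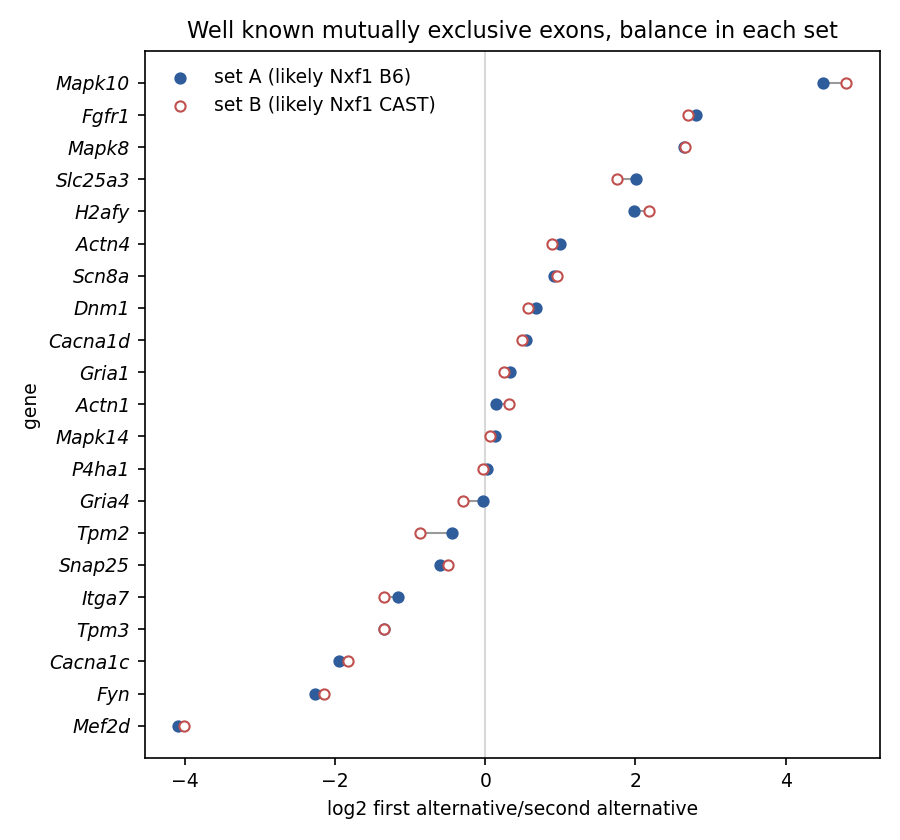
Log2 ratio of one alternative to the other (horizontal axis) in set A (filled) and set B (open) for 21 of the 22 well known mutually exclusive exon genes (vertical axis), ordered by set A. The values span -4.09 to 4.49 in set A, while none differs between the sets by over 0.43.

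The single mutually exclusive pair past the threshold was uc008oui-1, named by a UCSC transcript that RefSeq did not match, at chr3:29052523-29481828 in the table's coordinates. Exclusion read 103 in set A against 128 in set B, and inclusion 180 against 119, a difference of 0.91 (1.88-fold). This was the largest absolute difference of all 211 members, and the inclusion path contributed more of it, -0.60 against 0.31. Its paths were dim, with a lowest intensity of 103 where the class median was 244.

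Twin cassettes past the threshold fell in 5 of 6 gene groups, with 2 to 5 in each and none among the 2 channel genes. The groups are small, and differences between them were not tested. In metabolism and protein turnover, 18 of 25 twins were above 0, where 55.3% of all events were. Past the threshold were 3 upward and 2 downward, where 4.52% and 2.72% of all events were. *Sumf2*, a resident endoplasmic reticulum protein related to the sulfatase-activating enzyme, read 71 in set A and 119 in set B on the exclusion path and 259 and 242 on the inclusion path, a difference of 0.84. *Pgs1*, of cardiolipin synthesis, read 129 and 211 against 1591 and 1488, a difference of 0.81. *Pfkfb2*, which sets the level of a glycolytic activator, read 248 and 384 against 1020 and 1041, a difference of 0.60. In all of these exclusion was dimmer than inclusion and read higher in set B, while inclusion differed by 0.10 or less on the log2 scale. *Galntl2*, a glycosyltransferase now named *Galnt15*, was lowest of the class at -0.79, from 385 and 270 on the exclusion path and 201 and 244 on the inclusion path. *Ggt6*, of the gamma-glutamyltransferase family, read 180 and 141 against 390 and 470, a difference of -0.62. *Pam*, which amidates neuropeptides, had the most uneven balance of the class, -5.18 in set A and -4.86 in set B.

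Of 14 twins in synaptic, adhesion and membrane traffic genes, 8 were above 0, where 55.3% of all events were. *Ankrd27*, an endosomal Rab regulator, read 75 and 109 on the exclusion path and 297 and 266 on the inclusion path, a difference of 0.70. *Cntnap4*, a neurexin-family adhesion protein of interneurons, read 348 and 474 against 830 and 730, a difference of 0.63. *Sh3glb1*, a membrane-curving endophilin with twin exons of 39 and 24 nucleotides, read 177 and 136 against 301 and 374, a difference of -0.69. *Gphn*, the scaffold of inhibitory synapses, differed by 0.15, and *Reps2*, an endocytic adaptor, had the most even balance, 0.03 in set A. *Rims2*, an active-zone protein, was the only gene with a member of each class. Its twin read 670 and 579 against 237 and 222, a difference of -0.12, and its mutually exclusive pair 447 and 448 against 696 and 702, a difference of -0.01.

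The 25 twins of signalling genes included 18 above 0 and 2 past the threshold, where 55.3% and 7.34% of all events were. *Stac2*, a partner of voltage-gated calcium channels, read 408 and 562 against 745 and 681, a difference of 0.59. *Csf2rb2*, a beta chain of the interleukin 3 receptor, read 107 and 186 against 270 and 315, a difference of 0.58. Here both paths were brighter in set B, exclusion by 0.80 and inclusion by 0.22 on the log2 scale. *Eef2k*, the kinase of elongation factor 2, was the twin nearest under the threshold above 0, at 0.45, and *Lins2*, in no group, the nearest below, at -0.43. Just past it were *Ift140* and *Smc1a* at 0.52 each and *Fhod3* at -0.53. *Trpm4*, a calcium-activated cation channel, had the largest shift of summed intensity among the twins, 0.61 higher in set B on the log2 scale, with a difference of the balance of 0.26.

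In the cytoskeletal group, 8 of 13 twins were above 0, where 55.3% of all events were. *Sgcz*, a sarcoglycan, read 80 and 125 against 141 and 149, a difference of 0.56, and *Ift140*, of intraflagellar transport, 75 and 99 against 197 and 181. *Fhod3*, a formin that assembles actin, read 193 and 139 against 376 and 390. *Mapt*, which encodes tau, has twin exons of 87 and 87 nucleotides for its amino-terminal inserts and read 856 and 670 against 421 and 399, a difference of -0.28. *Dtna*, a dystrophin-associated protein and, like *Mapt*, a textbook gene, read 2801 and 2934 against 193 and 202, a difference of 0.00.

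Chromatin, transcription and RNA genes held 22 twins, 13 above 0 and 2 past the threshold, where 55.3% and 7.34% of all events were. *Suv420h1*, the histone H4 lysine methyltransferase now named *Kmt5b*, was the brightest of the 16 twins past the threshold by exclusion, at 1460 in set A and 2041 in set B, with 338 and 314 for inclusion, a difference of 0.59. It lies on chromosome 19. *Smc1a*, a cohesin subunit on chromosome X, read 547 and 766 against 742 and 723. *Foxj3* was lowest in this group at -0.42. The remaining twin past the threshold, uc009hwv-1, is named by a UCSC transcript and read 68 and 106 against 288 and 282, a difference of 0.67. *Tia1*, an RNA-binding regulator of splicing, differed by 0.06.

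In every one of the 16 twins past the threshold the exclusion path differed more between the sets than the inclusion path. Given this and the threshold, the direction of the exclusion path follows from how these twins were picked, so only the sizes are read. Exclusion was brighter in set B in all 12 twins with more exclusion, by 0.40 to 0.80 on the log2 scale, while inclusion ran from -0.19 to 0.22. In the 4 with less exclusion it was dimmer by 0.35 to 0.51 and inclusion brighter by 0.05 to 0.31. Over all twins the exclusion path differed more in 105 of 152 (69.1%), in single cassette exons in 64.5% and over all events in 55.5%. In mutually exclusive exons it did in 25 of 59 (42.4%), a share that follows only the table's order of the paths. The count for all events past the threshold is not given here, so the 16 twins have no such background beside them. The median log2 difference of exclusion was 0.07 over the twins and of inclusion -0.01, where the medians of all events were 0.02 and -0.02. Summed intensity differed little in either class, with a median of 0.03 for twins and -0.01 for mutually exclusive exons.

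**Figure D4:**
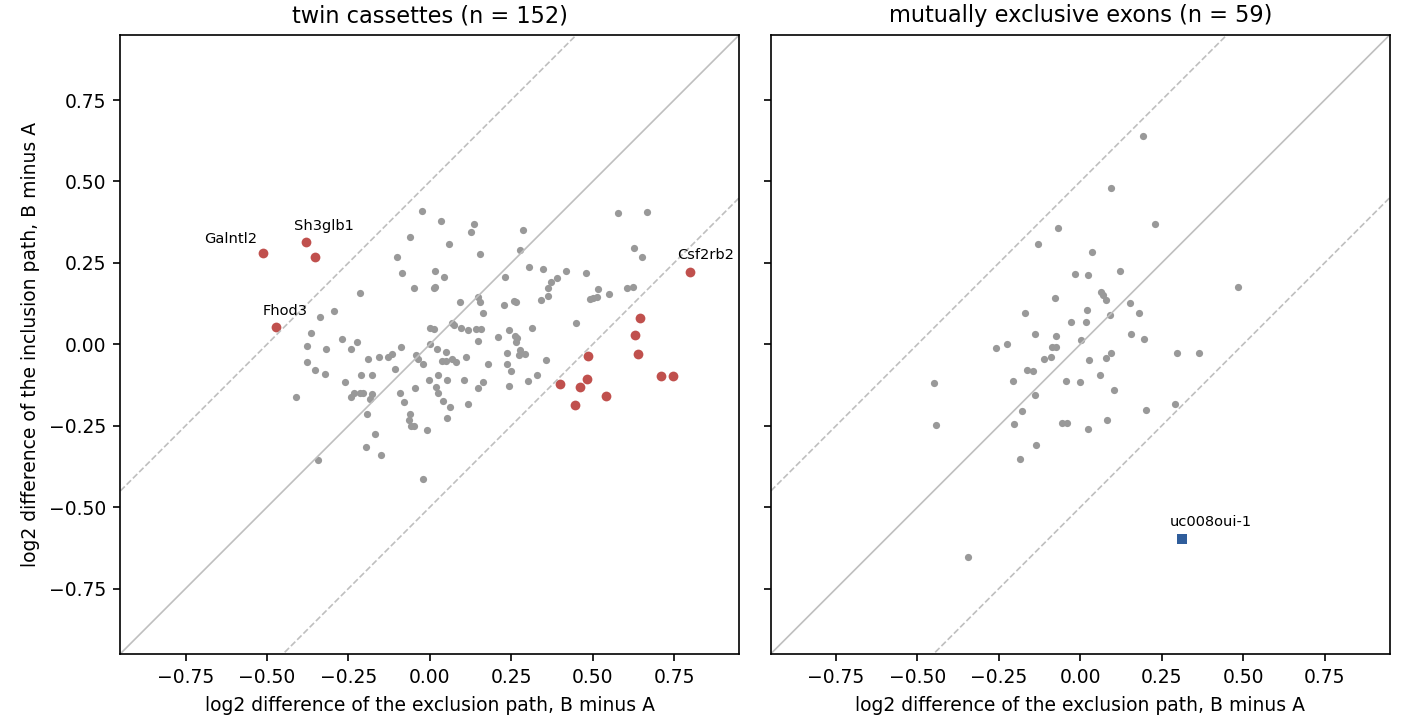
Log2 difference of the exclusion path (horizontal axis) and of the inclusion path (vertical axis), set B minus set A, for 152 twin cassettes and 59 mutually exclusive pairs. Coloured points are past the threshold, with 5 named, and dashed lines mark a difference of the balance of 0.5. Coloured twins lie far from 0 along the exclusion axis, and the mutually exclusive pair uc008oui-1 lies low on the inclusion axis.

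Brightness differed between the classes, and over the whole table larger differences were more frequent among dim events. The lowest intensity over all paths of an event had a median of 163.5 over the twins, 244 over the mutually exclusive exons and 170 over all events. For *Cept1* it was 150, from an extra path on chromosome 17, which counts this pair among those under 250. Of all events with a lowest intensity under 100, 10.6% were past the threshold, and 3.21% of those at 500 or more. Of the 16 twins past it, 5 were under 100 and 12 under 250. Among events of 250 or more, 4 of 42 twins (9.52%) and 0 of 27 mutually exclusive pairs were past it, beside 198 of 3976 events (4.98%). Among the dimmer events the counts were 12 of 110 twins (10.9%) and 1 of 32 pairs (3.12%), beside 8.38% of all. The 4 brighter twins were *Suv420h1*, *Stac2*, *Cntnap4* and *Smc1a*. Direction also went with the balance: of all events with exclusion dimmer than inclusion in set A 59.0% were higher in set B, and of the others 50.9%, with 70 of 102 (68.6%) and 29 of 50 (58.0%) in the twins. Across events, which share the same arrays, Spearman's rho between the absolute difference and the lowest intensity was -0.13 over 12553 events, -0.02 over the 152 twins and -0.27 over the 59 pairs. The part of brightness in these shares was not tested.

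**Figure D5:**
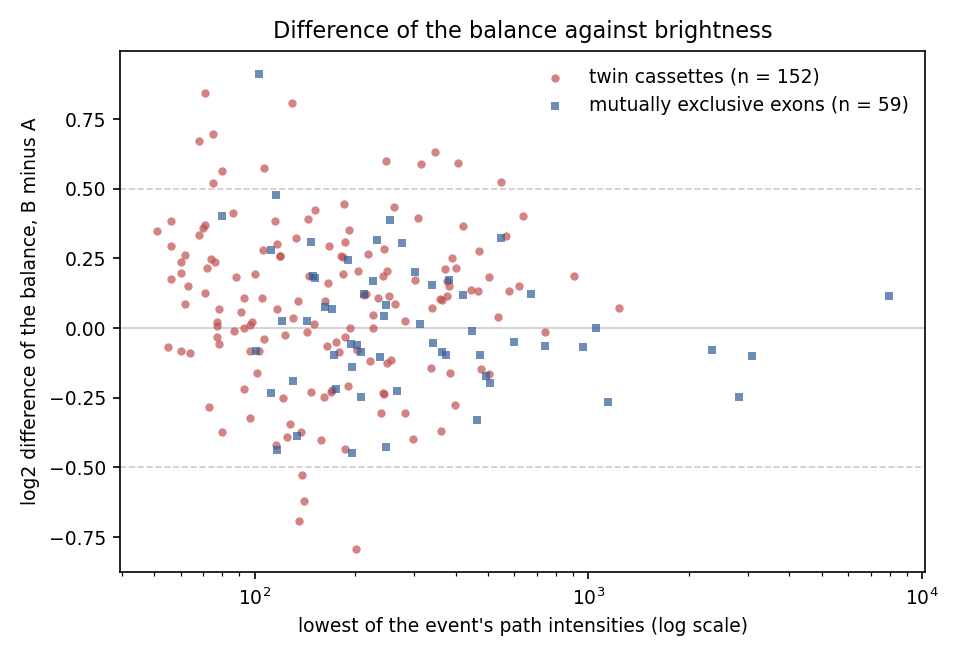
Log2 difference of the balance, set B minus set A (vertical axis), for twin cassettes and mutually exclusive exons. The horizontal axis is the lowest intensity over all paths of an event, on a log scale. Dashed lines mark 0.5 and -0.5. The 5 twins past the threshold with a lowest intensity under 100 all lie above 0.5, and the 4 below -0.5 have lowest intensities between 136 and 201.

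Members that keep and that shift the frame both held differences past the threshold. Of the twins whose summed length was a multiple of 3, 8 of 90 were past it (8.89%), and of the others 8 of 62 (12.9%), with median absolute differences of 0.20 and 0.21 and median lowest intensities of 186.5 and 126. The mutually exclusive pairs of equal length had a median absolute difference of 0.11 over 26 pairs, and those of unequal length 0.18 over 33, while their median lowest intensities were 328 and 196. The largest absolute difference among the equal pairs was that of *Tnnt3*.

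Chromosome 19 carried 8 members, and none of them lay in the stretch from the *Fkbp2* event to the *Stx3* event, chr19:7053631-11866235 in the table's coordinates, where 70 events of the array lie. Besides *Suv420h1* and *Smarca2* they included the twins of 5033414D02Rik (0.37), *Minpp1* (0.31), an inositol polyphosphate phosphatase, 4930506M07Rik (0.25), *Pcnxl3* (-0.09) and *Ablim1* (-0.16), an actin-binding protein, the number being the difference of the balance. Only *Suv420h1* was past the threshold. How far the CAST segment reaches towards it, and whether probes met CAST variants there, was not tested. No member lay in any of the 44 genes with an intronic IAP in the sense orientation that the study examined.

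Other events of the same genes gave a view of the same transcripts. For 33 members another event of the gene overlapped the member's span, and 0 of these 33 events was past the threshold, beside 7.34% of all events. Of the members past it, 3 had such an overlap. In *Suv420h1* a single cassette exon of 60 nucleotides read 415 and 503 for exclusion and 1065 and 1009 for inclusion, a difference of 0.36 in the direction of its twin. In *Ankrd27* an alternative end differed by -0.03, and in uc009hwv-1 an alternative start by 0.23. Over the 32 overlapping events with a sign, 17 had that of the member. This count includes mutually exclusive pairs, whose sign follows only the table's order of the paths. In *Lnx1*, an E3 ubiquitin ligase, the twin and an overlapping alternative start stood at -0.39 and -0.41, whereas in *Daglb*, a lipase of endocannabinoid synthesis, the twin and a complex event stood at 0.42 and -0.15. Of all 219 other events in the member genes, 12 were past the threshold, where 7.34% of all events were. Overlapping events may read some of the same RNA or probes, so they are not independent.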

How the data were processed

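Brain RNA of 6 mice was hybridised to 1 Affymetrix MJAY array each. Per the labels, Affymetrix Power Tools was used, and its version, the array normalisation and the genome build are not given in the sources used here. The authors deposited 1 table with summarised linear intensities, as whole numbers pooled per set, for the exclusion and inclusion side of each path. It also holds the authors' separation scores and q-values, which are their own comparisons and were not used. Since nothing is given per array, no test, error or pairing could be computed. There is no measure of depth on arrays, and their small number limits the precision.

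Here the paths of an event were combined under its name. The event took the path with the largest absolute log2 difference and the sign and levels of its exclusion path, with no pseudocount and no filter. On the 26304 paths with intensities under both the paired and the standard comparison these were identical (0 differing values), and a few paths had only one of them. Members were named by fixed criteria: past 0.5, the 5 highest and lowest per class, nearest to the threshold, most even and most uneven, on chromosome 19, in the textbook or IAP lists, or in both classes; further genes were named to illustrate a group after their values were seen. A few genes that meet these criteria are not reported here. The members, lists and named-gene criteria were chosen with earlier results of these data known. Groups by role were assigned by hand for 152 of 211 members, in place of symbol patterns that placed several genes wrongly. Gene names matched RefSeq (GRCm38) for 196 of 211 members, 29 through a synonym, and 195 of these on the same chromosome. As only 20 events lay within the GRCm38 bounds of their gene, the table follows another build and its coordinates are given as listed. The joining step was tested on simulated data. Computation used pandas 2.3.3 with numpy 2.4.6 under Python 3.11.15, with plots by matplotlib 3.10.9.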

Additional observations from a re-analysis of the deposited data

How the results depend on the processing

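No paired analysis was possible because the table holds values pooled over the arrays of each set, and for the same reason no animal could be left out. The count of twin cassettes past the threshold, 16, was 10 of 103 (9.71%) without the dimmest 25% of events, where 622 of all events were (6.41%). With a pseudocount of 64 the count was 7 of 152 (4.6%), where 340 of all events were (2.6%). At thresholds of 0.3, 0.6 and 1, with no pseudocount, it was 47 (30.9%), 9 (5.92%) and 0, where 26.0%, 3.41% and 0.224% of all events were past them. The count of mutually exclusive pairs, 1, was 0 of 56 without the dimmest 25% of events. It was 13 (22.0%), 6 (10.2%) and 0 at thresholds of 0.3, 0.4 and 1, where all events stood at 26.0%, 13.96% and 0.224%. The other 73 of 82 values of the classes stayed within 1.5 times the count or median, 10 percentage points of the share above 0, or 0.1 of the summed intensity. Many of these could hardly move. Taking the exclusion path only, the median over the paths, or genes in place of events returned the main values for both classes. The standard comparison lists the same intensities, so the count of 73 overstates how stable the values were. All 17 members past the threshold kept their sign under each alternative, though most of these alternatives could not have changed it. Of the 17, 9 went below the threshold with a pseudocount of 64 and 3 with a pseudocount of 16 (*Fhod3*, *Ift140* and *Sgcz*). After centring on the median of all events 2 did (*Ift140* and *Smc1a*). After that centring 59.9% of twins lay above 0, and 40.7% of mutually exclusive pairs, or 59.3% with the order of their paths turned. The cause of these shifts was not tested.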

Other observations

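One member, the mutually exclusive pair of *Cept1*, an enzyme of phospholipid synthesis on chromosome 3, has an extra path under its name on chromosome 17. That path read 310 and 318 for exclusion and 150 and 157 for inclusion, a difference of -0.03, while the pair itself read 1283 and 1235 against 690 and 584, a difference of 0.19. The twin cassette of *Lrrfip2*, which has no intensities for the paired comparison, read 121 and 122 for exclusion and 275 and 277 for inclusion in the standard comparison, a difference of 0.00.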
